A study of Mus musculus with 18 samples.

Results

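The rows of 6 chromatin coregulators were examined out of 40620 gene rows in the count table of one RNA-seq series. The genes were chosen by name: the acetyltransferases Crebbp and Kat5, the histone demethylase Kdm2a, the demethylase cofactor Glyr1, the remodeler subunit Dpf2 and the corepressor subunit Brms1. Crebbp and Glyr1 lie on mouse chromosome 16 and the other 4 on chromosome 19. All 6 passed the filter on low counts.

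The series asked how lower Rcor2 acts on osteoblast differentiation, in the mouse preosteoblast line MC3T3-E1. Cells carried a lentiviral short hairpin construct that was expressed stably: shScramble, the control, or shRcor2-18 or shRcor2-20, both directed at Rcor2. Samples were taken from every construct at the times 0h, 24h and 7d, which gave 9 groups of 2 samples and 18 libraries. Per the labels, all cells came from the same line in serum-supplemented growth medium, and differentiation was induced with ascorbic acid (50 µg/ml), dexamethasone (10 nM) and beta-glycerophosphate (5 mM). The labels do not say whether a line with a given hairpin was a clone or a pool. The titles name 7d, whereas the protocol text names 24 hours, 14 days and 21 days, so times are given as in the titles. Whether both samples in a group came from separate cultures is not stated in the labels, and the p-values therefore speak only of the spread among samples, which may be technical.

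Coregulators do not bind DNA by a sequence of their own in most cases. They are brought to genes by transcription factors or by marks already on chromatin, where they add or remove acetyl and methyl groups, slide nucleosomes, or hold enzymes that do so. Rcor2 belongs to the CoREST family of corepressors, which join a lysine demethylase to histone deacetylases. In osteoblast precursors, coactivators and corepressors of these kinds act with factors such as Runx2 on bone genes.

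The rows of this table are not all in register with their gene names. Row names were taken as in register in 2 stretches, chosen with these data known and not checked against the reads, one on chromosome 16 (Mefv to Cbr3, 610 coding rows) and one on chromosome 19 (Ighmbp2 to Gpha2, 134). Members of gene families that nearly all cells express reached 20 plain CPM (scaled to the library total alone) in 15 of 16 rows inside them and in 47 of 289 elsewhere. Unless called plain, CPM are TMM-scaled counts relative to library size. All 6 coregulators lie inside. Of the 20 nearest coding rows, 10 on each side, between 10 (Glyr1) and 17 (Crebbp and Dpf2) reached 20 plain CPM. The osteoblast markers lie outside, so the labelled cell type was not checked. The Rcor2 row, at 195 to 268 CPM, also lies outside. Its log2 difference between hairpins and shScramble was 0.10 ± 0.062 (SE; edgeR adjusted p = 0.832), and whether it holds Rcor2 reads is not settled, so the constructs are named by label.

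Sample 1 of each construct at 0h was left out. These 3 libraries had counts in 11942 to 14355 rows, against 16555 to 18277 in the other 15. They correlated with those at 0.86 to 0.87 in log2(plain CPM + 1), where the 15 correlated with each other at 0.95 to 0.97. The 15 held 3504808 to 6139315 counts each. Each construct thus had 1 library at 0h, assumed to vary like the other groups, and 2 at 24h and at 7d. Libraries also resembled each other across the construct labels: over 416 in-register rows, deviations from the mean of the time correlated at 0.76 at 24h and 0.69 at 7d between shScramble sample 1 and shRcor2-18 sample 1. The corresponding values were 0.65 and 0.56 between shScramble sample 2 and shRcor2-20 sample 1, and 0.72 and 0.62 between the second samples of both hairpins. Samples of the same construct correlated at -0.61 to -0.15. The part of this resemblance in the hairpin differences was not tested.

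None of the 6 coregulators passed the threshold in any comparison of constructs or times by edgeR's quasi-likelihood test on the whole table. The share of all rows that did ran from 0.00773% to 5.76% by comparison. The hairpin differences over the 3 times ran from -0.17 (Brms1) to 0.14 (Crebbp) on the log2 scale. Without the single shScramble library at 0h the comparison covers 24h and 7d only, and there Brms1 was at -0.02 and Crebbp at 0.04. The nearest to a difference between times was from 24h to 7d, where Dpf2, Brms1 and Kat5 each had an unadjusted edgeR p under 0.05, as had 17.8% of all rows. A fold of CPM in bulk RNA cannot tell fewer cells from less RNA per cell.

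The spread of these genes between libraries was below the median of in-register genes of like level, except for Brms1. Per kilobase of exon, the scale on which genes can be compared, Dpf2 had the highest mean level at 98.3 CPM per kb, followed by Brms1 at 89.3, Kdm2a at 60.1, Glyr1 at 54.3, Kat5 at 54.0 and Crebbp at 17.8. Over the 15 libraries the standard deviation of log2 CPM was 0.119 for Kdm2a, 0.120 for Glyr1, 0.131 for Dpf2, 0.140 for Crebbp, 0.173 for Kat5 and 0.203 for Brms1. Its median was 0.135 over the 6 genes, 0.195 over 260 in-register rows at 100 CPM or more, and 0.541 over all 12930 rows tested. Brms1 stood at the middle of in-register rows within 2-fold of its own level, of which 50% had a smaller spread, and Kdm2a lowest, with 14.8%. Counting error alone was 1.65% to 3.92% of the level, and the deepest row, Kdm2a, had the smallest.

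**Figure D1:**
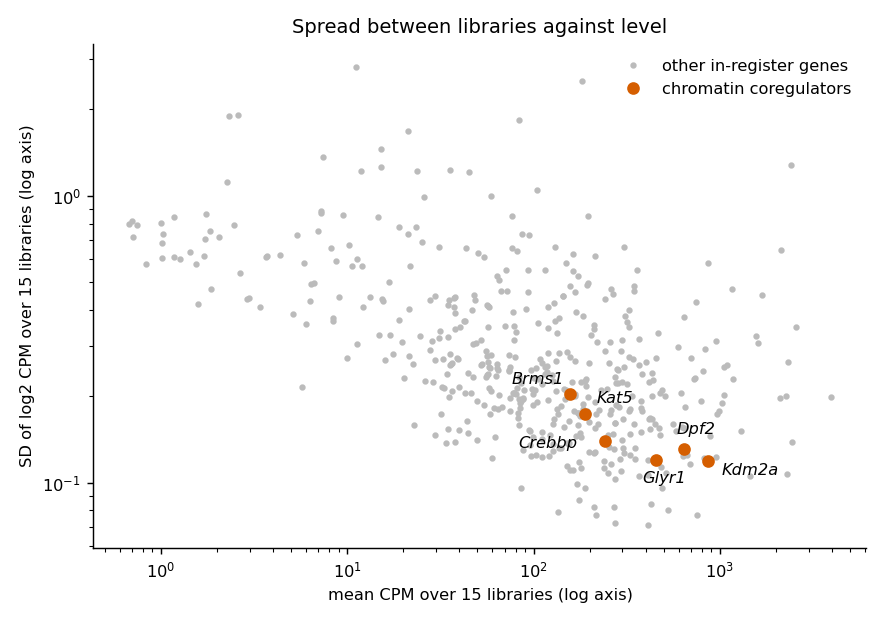
Standard deviation of log2 CPM over the 15 libraries against mean CPM, both on log axes, for 489 in-register rows, with the 6 coregulators in orange. The 6 lie between 156 and 868 CPM with standard deviations of 0.119 (Kdm2a) to 0.203 (Brms1), and most other rows at their level lie above all but Brms1.

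Crebbp encodes CBP, a lysine acetyltransferase that binds CREB and many other activators and acetylates histones at enhancers. Its mean was 240 CPM, and its lowest library was shScramble sample 1 at 24h (206) and its highest shRcor2-20 sample 1 at 7d (290). At 0h it was 212 CPM in shScramble, 255 in shRcor2-18 and 281 in shRcor2-20. At 24h the samples were at 206 and 239 CPM in shScramble, 239 and 232 in shRcor2-18 and 223 and 219 in shRcor2-20. At 7d they were at 231 and 257, at 224 and 255, and at 290 and 243 CPM in the same order. The shRcor2-20 mean was the highest of the constructs at 0h and at 7d and the lowest at 24h, and at 24h and 7d the hairpin libraries overlapped those of shScramble. Over the 3 times the hairpins differed from shScramble by 0.14 ± 0.078 (log2, SE; 95% interval -0.04 to 0.32; edgeR adjusted p = 0.816). At 0h, with 1 library per construct, the difference was 0.33 ± 0.167 (edgeR adjusted p = 0.692). From the highest group mean (shRcor2-20 at 0h) to the lowest (shScramble at 0h), 0 of 8 steps between neighbouring groups exceeded the pooled standard deviation within groups, 20.4 CPM. Ordered means split the whole range, here 1.32-fold, over the 8 steps. A low count of such steps therefore does not show that the groups are alike, for Crebbp or for the genes below.

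Kat5 encodes Tip60, the acetyltransferase of the NuA4 complex, which acetylates histones H4 and H2A and acts in transcription and DNA repair. Its mean was 190 CPM, with a range of 145 to 225. At 0h Kat5 stood at 195 CPM in shScramble, 157 in shRcor2-18 and 207 in shRcor2-20. At 24h the values were 217 and 225 CPM in shScramble, 221 and 193 in shRcor2-18 and 178 and 183 in shRcor2-20. Both shRcor2-20 samples were thus below all 4 others at 24h, while shRcor2-18 overlapped shScramble. At 7d Kat5 was at 185 and 145 CPM in shScramble, 188 and 173 in shRcor2-18 and 191 and 185 in shRcor2-20, and the order of the constructs had turned. The hairpin difference was -0.19 ± 0.118 at 24h (log2, SE; 95% interval -0.46 to 0.08; edgeR adjusted p = 1), and it shifted by 0.35 ± 0.169 to 7d (interval -0.04 to 0.74; edgeR adjusted p = 1, unadjusted p = 0.0708). Over the 3 times it was -0.05 ± 0.080 (interval -0.23 to 0.13). Of 8 steps between neighbouring group means 1 exceeded the pooled standard deviation within groups of 15.1 CPM, that between shRcor2-18 and shScramble at 7d. The exons of Kat5 share 426 bases (12.1%) with Rnaseh2c on the opposite strand, a row of 254 CPM, and since the strand setting of the counting is not given in the sources used here, reads there cannot be told apart.

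Kat5 is among the 3 genes with the smallest unadjusted p between 24h and 7d, and its promoter is shown for that reason, from 250 bases before to 50 after the first of 2 start sites in RefSeq (GRCm38.p6, chr19:5610045-5610344, minus strand). Capitals mark matches on either strand to 5 motifs: TGACGTCA (the CREB element), CACGTG (an E-box), GGGCGG (a GC box), CCGGAAGT (an ETS element) and CCAAT (the NF-Y box). They are matches of letters and not binding sites measured here.
Kat5: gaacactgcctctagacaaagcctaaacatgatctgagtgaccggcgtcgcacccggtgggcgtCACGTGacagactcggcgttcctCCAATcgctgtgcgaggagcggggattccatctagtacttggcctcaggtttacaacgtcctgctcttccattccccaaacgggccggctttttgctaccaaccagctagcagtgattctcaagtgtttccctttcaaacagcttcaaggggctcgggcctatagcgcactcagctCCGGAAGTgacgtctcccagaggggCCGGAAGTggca
The window holds 2 CCGGAAGT matches, which 3.89% of 32851 promoters of this length hold at least once, with 1 CACGTG (in 7.15% of promoters) and 1 CCAAT (in 37.4%). The window at the second start site, not shown, holds 3 GGGCGG and no match to the other motifs. Which start site these cells use was not tested.

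Kdm2a encodes a demethylase of histone H3 that is drawn to unmethylated CpG islands by a zinc finger domain. Its mean was 868 CPM, and its lowest library was shRcor2-18 sample 1 at 7d (729) and its highest shRcor2-20 at 0h (962). At 0h its level was 876 CPM in shScramble, 862 in shRcor2-18 and 962 in shRcor2-20. At 24h the pairs of samples were at 774 and 883, 865 and 876, and 955 and 883 CPM in that order. At 7d they were at 763 and 950, 729 and 914, and 898 and 825 CPM. At 24h both shRcor2-20 samples were at or above the highest of the other 4 (883 CPM), and at 7d the samples of shScramble and of shRcor2-18 lay farther apart than any pair of construct means. The hairpin difference over the 3 times was 0.05 ± 0.088 (log2, SE; 95% interval -0.15 to 0.25; edgeR adjusted p = 1), and 0 of 8 steps between neighbouring group means passed the pooled standard deviation of 87.3 CPM.

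Glyr1 encodes a nucleosome-binding protein that serves as cofactor of the histone demethylase Kdm1b and helps polymerase through nucleosomes. Its mean was 457 CPM, with the lowest library in shRcor2-18 at 0h (386) and the highest in shScramble at 7d (544). At 0h Glyr1 was at 470 CPM in shScramble, 386 in shRcor2-18 and 417 in shRcor2-20. The 24h samples were at 429 and 504 CPM in shScramble, 464 and 435 in shRcor2-18 and 480 and 445 in shRcor2-20. At 7d the respective values were 450 and 544, 460 and 441, and 491 and 433 CPM. The single highest library was shScramble sample 2 at 7d, and shScramble sample 2 also led at 24h, whereas shScramble sample 1 was the lowest at 24h and lay among the hairpin libraries at 7d. The hairpins differed from shScramble by -0.13 ± 0.077 over the 3 times (log2, SE; 95% interval -0.31 to 0.05; edgeR adjusted p = 0.824). The group means ran from 497 CPM (shScramble at 7d) to 386 (shRcor2-18 at 0h) with 0 of 8 steps above the pooled standard deviation of 41.0 CPM.

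The Glyr1 promoter is shown because it is the only one among the windows found for 4 of these genes that holds the full CREB element (RefSeq, GRCm38.p6, chr16:5049861-5050160, minus strand, with the same window and capitals).
Glyr1: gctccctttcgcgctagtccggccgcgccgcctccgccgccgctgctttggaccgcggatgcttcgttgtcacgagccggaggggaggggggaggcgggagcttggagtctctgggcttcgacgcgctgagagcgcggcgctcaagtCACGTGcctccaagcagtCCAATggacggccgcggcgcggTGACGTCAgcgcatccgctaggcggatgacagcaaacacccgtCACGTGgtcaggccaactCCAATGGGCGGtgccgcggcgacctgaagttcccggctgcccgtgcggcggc
It holds TGACGTCA once, 63 bases before the start site, a match found in 1.79% of all promoters in the table, with 2 CACGTG, 2 CCAAT and 1 GGGCGG (35.7% of promoters hold the last). Its GC content was 70.3%, against a median of 52.7% over all promoters, and it has 41 CpG against a median of 7.

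Dpf2 encodes a subunit of the SWI/SNF (BAF) remodeler whose PHD fingers read acetylated histone tails. Its mean was 639 CPM, with the lowest library at 0h (540) and the highest at 24h (729). At 0h Dpf2 stood at 540 CPM in shScramble (the lowest of its 15 values), 637 in shRcor2-18 and 656 in shRcor2-20. At 24h it was at 728 and 653 CPM in shScramble, 709 and 670 in shRcor2-18 and 633 and 729 in shRcor2-20. At 7d it was at 613 and 566, 594 and 666, and 567 and 628 CPM in the same order. The 3 groups at 24h had the highest means of the 9, and at 24h and 7d the samples of all constructs overlapped. Over the times the hairpins differed from shScramble by 0.10 ± 0.071 (log2, SE; 95% interval -0.06 to 0.27; edgeR adjusted p = 0.854), and at 0h by 0.26 ± 0.152 (edgeR adjusted p = 0.737). Among 8 steps between neighbouring group means 1 exceeded the pooled standard deviation of 48.1 CPM, the one down to shScramble at 0h, a single library. The exons of Dpf2 share 79 bases with the antisense gene Gm42067.

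The Dpf2 promoter is shown since its row was lower at 7d than at 24h in every pair of libraries described below (RefSeq, GRCm38.p6, chr19:5912822-5913121, minus strand, window and capitals as above).
Dpf2: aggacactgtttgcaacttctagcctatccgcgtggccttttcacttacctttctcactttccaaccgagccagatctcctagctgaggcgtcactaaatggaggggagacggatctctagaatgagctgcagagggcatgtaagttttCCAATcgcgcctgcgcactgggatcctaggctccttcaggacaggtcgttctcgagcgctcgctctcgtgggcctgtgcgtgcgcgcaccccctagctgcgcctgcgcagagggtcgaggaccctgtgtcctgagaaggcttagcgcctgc
It holds 1 CCAAT, 101 bases before the start site, and no match to the other 4 motifs, and its GC content was 58.7%, with 20 CpG. The RefSeq promoter of Crebbp was richer still in GC (82%, 49 CpG) and held 2 overlapping GGGCGG. Promoters of 4 of the 6 genes were matched by symbol.

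Brms1 encodes a subunit of the SIN3 histone deacetylase complex that was first known as a suppressor of breast cancer metastasis. It had the widest spread of the 6 on the log2 scale, with a mean of 156 CPM and a range of 116 to 184. At 0h it was at 178 CPM with shScramble and at 128 and 129 CPM with shRcor2-18 and shRcor2-20. Both hairpin libraries were below shScramble here, with 1 library each. The left-out sample 1 libraries at 0h showed no such gap, at 208 plain CPM (scaled to the library total alone) in shScramble, 209 in shRcor2-18 and 215 in shRcor2-20. The 24h samples were at 172 and 184 CPM in shScramble, 174 and 162 in shRcor2-18 and 182 and 158 in shRcor2-20. At 7d they were at 147 and 141, 171 and 147, and 157 and 116 CPM in that order, and at both times the hairpin libraries overlapped those of shScramble. The hairpin difference at 0h was -0.47 ± 0.197 (log2, SE; 95% interval -0.93 to -0.02; edgeR unadjusted p = 0.0421, adjusted p = 0.649), and with all 18 libraries it was -0.03 ± 0.286. Over the 3 times it was -0.17 ± 0.094 (interval -0.39 to 0.04; edgeR adjusted p = 0.807). None of 8 steps between neighbouring group means (0 of 8) passed the pooled standard deviation of 16.2 CPM. In the annotation, 1383 bases (79.0%) of the exons of Brms1 also belong to AC124502.3, a gene on the same strand that has no row in the table, so its reads may be counted under Brms1 or not at all, which was not tested.

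**Figure D2:**
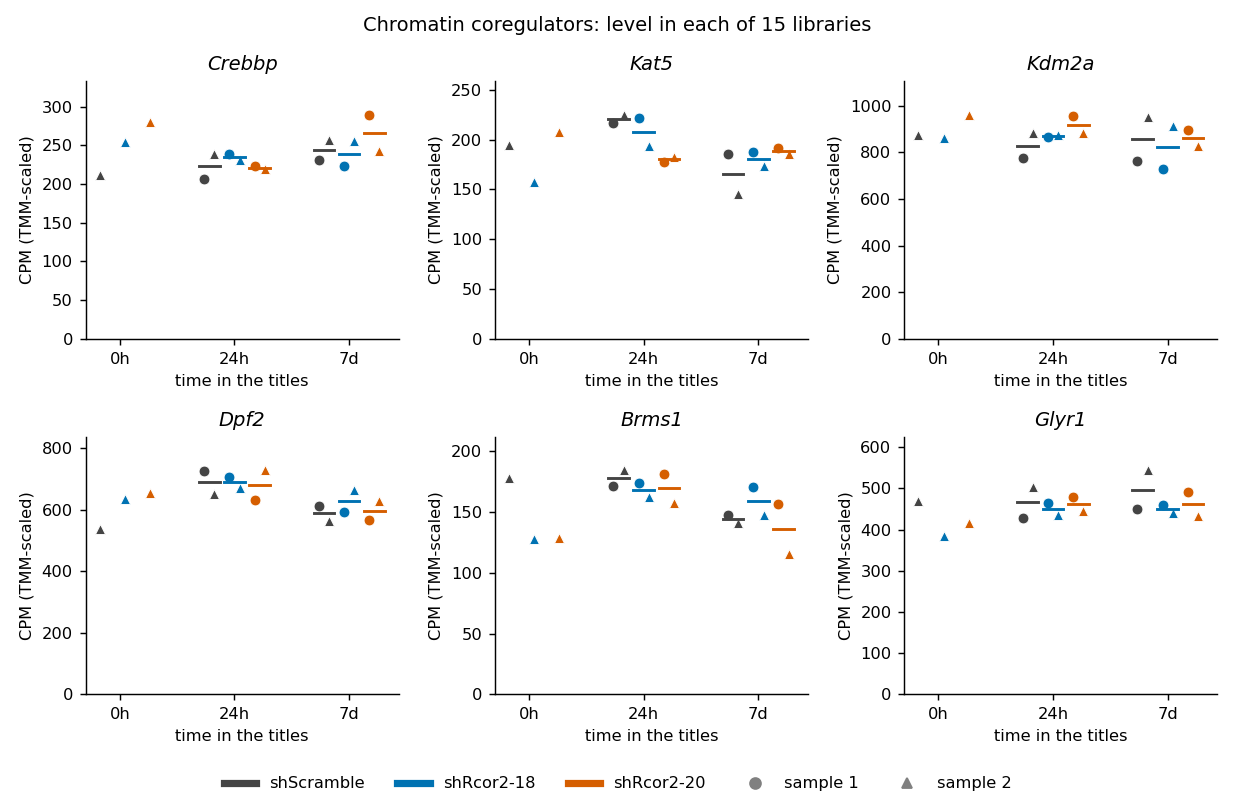
TMM-scaled CPM of the 6 coregulators in each of 15 libraries by time (x axis) and construct (colour), with sample 1 as circles, sample 2 as triangles and bars for the mean of 2 samples; each y axis starts at 0. At 24h and 7d the 4 hairpin libraries overlap shScramble in every panel, and shRcor2-20 stands apart from the other 4 libraries for Kat5 at 24h (178 and 183 CPM) and, by less than 1 CPM, for Kdm2a at 24h.

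Set against shScramble over the 3 times, 0 of 6 coregulators were called by edgeR at an adjusted p under 0.05, where 0.00773% of 12930 rows were (1 row), and 0 of 6 had an unadjusted p under 0.05. DESeq2 called 0 as well (0.843% of rows). Their median size of difference was 0.12 on the log2 scale, against 0.23 over all rows. The median SE was 0.08 for the 6 and 0.32 over all rows, so the sizes cannot be compared directly. All 6 intervals of the difference lay between -0.39 and 0.32. Without the shScramble library at 0h, Dpf2 was at 0.02 (0.10 with it) and Glyr1 at -0.08 (-0.13 with it), beside the values of Brms1 and Crebbp given above. The signs were mixed, with 3 above 0 (Crebbp, Dpf2 and Kdm2a) and 3 below (Kat5, Brms1 and Glyr1).

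Taken by time, the hairpin comparison called 0 of 6 by edgeR at 0h, 24h and 7d alike, against backgrounds of 0.155%, 0.0155% and 0.0387% of rows. DESeq2 called 0 at each time, against 1.18%, 0.232% and 0.232%. At 0h 1 of the 6, Brms1, had an unadjusted p under 0.05 (7.5% of all rows did), and at 24h and 7d 0 did. The median size was 0.24 at 0h (0.48 over all rows), 0.06 at 24h (0.25) and 0.05 at 7d (0.26), with 1 library per construct at the first of these times. The median SE also differed, at 0.17 (0.64 over all rows), 0.12 (0.46) and 0.12 (0.47), so the sizes cannot be compared directly. The plot of hairpin differences shows the widest intervals at 0h for every gene.

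**Figure D3:**
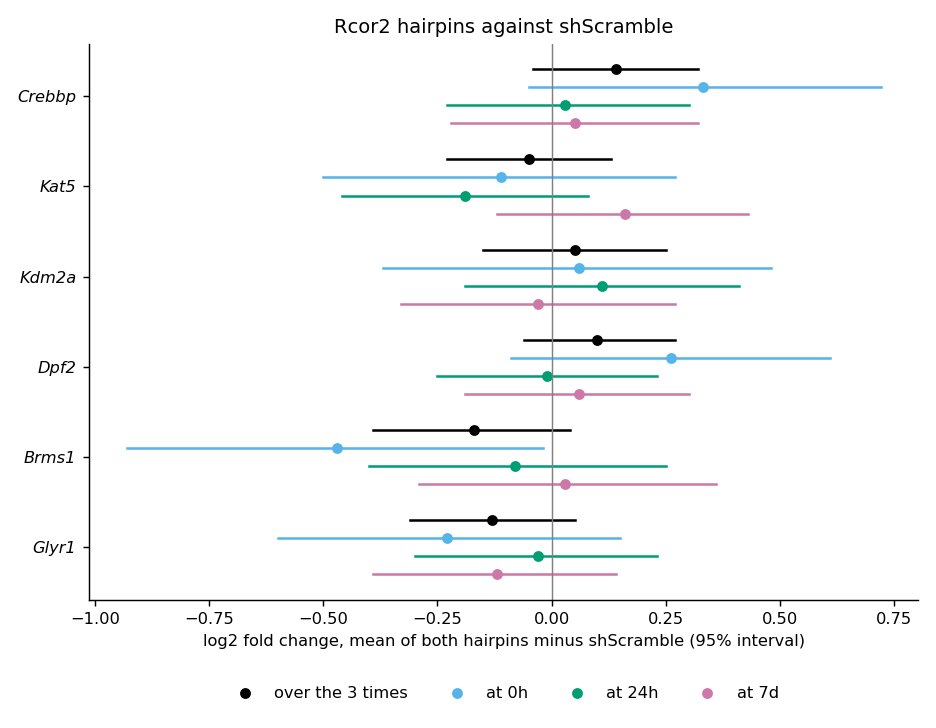
log2 fold change of both hairpins against shScramble with 95% intervals, for each coregulator, over the 3 times (black) and at 0h, 24h and 7d (colours). All intervals cross 0 except that of Brms1 at 0h (-0.93 to -0.02), which rests on 1 library per construct.

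Each hairpin was also tested alone. With shRcor2-18 the differences over the 3 times ran from -0.16 (Glyr1) to 0.11 (Dpf2 and Crebbp), and with shRcor2-20 from -0.21 (Brms1) to 0.17 (Crebbp) on the log2 scale. edgeR called 0 of 6 for either hairpin (0.101% and 0.0387% of rows), with 0 of 6 at an unadjusted p under 0.05, and DESeq2 called 0 (0.565% and 0.549%). Set directly against each other, the hairpins differed by at most 0.10 in size, between -0.10 (Kdm2a) and 0.07 (Brms1), and again 0 of 6 were called by edgeR (0.0928% of rows) or DESeq2 (0.356%), with 0 at an unadjusted p under 0.05. The shift of the hairpin difference from 24h to 7d was largest for Kat5, given above, and 0 of 6 were called (0.0541% of rows; edgeR; 0 at an unadjusted p under 0.05; 0 by DESeq2, against 0.271%).

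From 0h to 24h, averaged over the 3 constructs, Brms1 had the largest difference among the 15 libraries. Its 3 libraries at 0h were at 128 to 178 CPM and its 6 at 24h at 158 to 184, with a median of 173, and only the shScramble library at 0h lay within the later range. That difference was 0.26 ± 0.117 (log2, SE; edgeR unadjusted p = 0.0534, adjusted p = 0.446). Dpf2 differed by 0.17 ± 0.087 and the others by -0.13 (Crebbp) to 0.13 (Kat5). These values rest on which 0h libraries are used: with all 18, Brms1 was at -0.10 and Dpf2 at -0.09, and the largest were Crebbp at -0.63 ± 0.213 and Kdm2a at -0.57 ± 0.220, with 0 of 6 called by edgeR. With the 15 libraries edgeR called 0 of 6, against 1.86% of rows, with 0 at an unadjusted p under 0.05, and DESeq2 called 0, against 4.5%.

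From 24h to 7d, Dpf2, Brms1 and Kat5 had lower means and Crebbp a higher one. Dpf2 ran from 633 to 729 CPM at 24h (median 689) and from 566 to 666 at 7d (median 604). Brms1 ran from 158 to 184 CPM at 24h (median 173) and from 116 to 171 at 7d (median 147). Kat5 ran from 178 to 225 CPM at 24h (median 205) and from 145 to 191 at 7d (median 185). The ranges of the times overlapped for each of these 3 genes. The differences were -0.18 ± 0.071 for Dpf2 (log2, SE; 95% interval -0.34 to -0.02; edgeR unadjusted p = 0.0322, adjusted p = 0.227), -0.23 ± 0.095 for Brms1 (interval -0.45 to -0.02; unadjusted p = 0.0379, adjusted p = 0.246) and -0.19 ± 0.080 for Kat5 (interval -0.37 to -0.00; unadjusted p = 0.0463, adjusted p = 0.271). Crebbp differed by 0.14 ± 0.077 (edgeR adjusted p = 0.397), Kdm2a by -0.04 ± 0.087 and Glyr1 by 0.03 ± 0.078. By edgeR 0 of 6 were called, against 2.34% of rows, with 3 of 6 at an unadjusted p under 0.05, as had 17.8% of all rows, and DESeq2 called 0, against 8.51%.

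Libraries of the same construct and sample number deviated together at 24h and 7d, so the difference was also read within each of these 6 pairs. The pairs are not independent, since libraries also resembled each other across constructs at both times, as given above. The share of all rows that were lower in 6 of 6 pairs was not counted. Dpf2 was lower at 7d in 6 of 6 pairs, by -0.26 to -0.01 on the log2 scale, and Brms1 in 6 of 6, by -0.44 to -0.03. Kat5 was lower in the 4 pairs of shScramble and shRcor2-18, by up to -0.63 in shScramble sample 2, and at 0.11 and 0.02 in the pairs of shRcor2-20. Crebbp was lower in 1 pair and Glyr1 in 2. In a fit restricted to the 489 in-register rows with a replicate block for each construct's sample number, added after the data had been seen, edgeR called 2 of 6: Dpf2 fell by 0.21 ± 0.072 (adjusted p = 0.0284) and Brms1 by 0.27 ± 0.084 (adjusted p = 0.0192). Kat5 was at -0.22 ± 0.085 (edgeR adjusted p = 0.0548). That fit called 31.5% of its rows, so 2 of 6 is near its background.

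**Figure D4:**
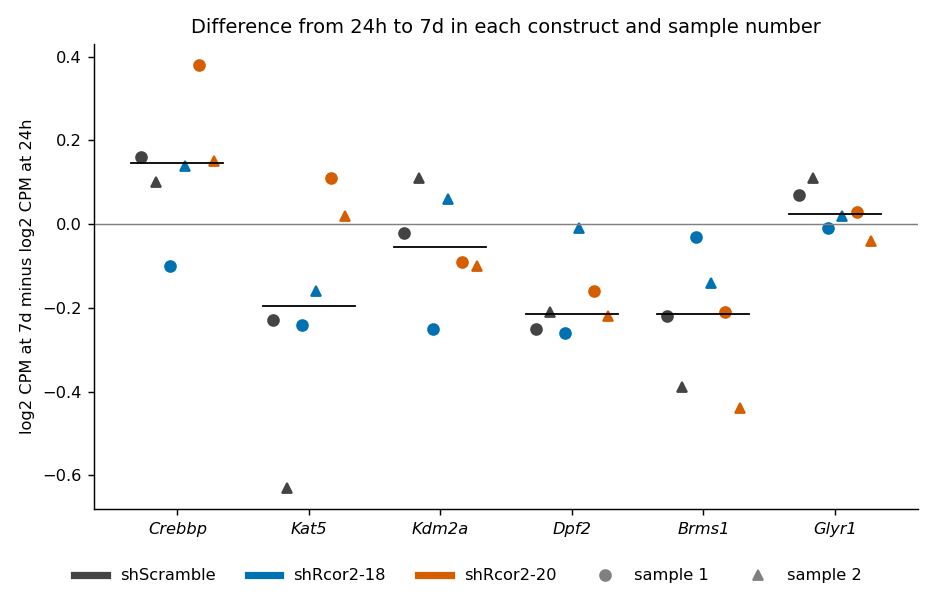
log2 CPM at 7d minus log2 CPM at 24h for each construct (colour) and sample number (shape), with the median of the 6 pairs as a black line. Dpf2 and Brms1 lie below 0 in 6 of 6 pairs, and Kat5 in 4 of 6, with shScramble sample 2 at -0.63.

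Over the whole course, from 0h to 7d, the differences with the 15 libraries ran from -0.09 (Kdm2a) to 0.15 ± 0.096 (Glyr1; log2, SE; edgeR adjusted p = 0.432). The median size was 0.04, against 0.44 over all rows, where the median SE was 0.10 for the 6 and 0.39 over all rows. edgeR called 0 of 6 here, against 5.76% of rows, with 0 at an unadjusted p under 0.05, and DESeq2 called 0, against 11%. With the 15 libraries, means of Dpf2 and Brms1 at 24h were above those at both other times (687 CPM against 611 and 606 for Dpf2, 172 against 145 and 147 for Brms1). The steps before and after 24h thus had opposite signs and left -0.01 and 0.03 on the log2 scale. In shScramble alone Brms1 was at 178 CPM at 0h, in 1 library, and at a mean of 178 at 24h. With all 18 libraries both differences from 0h to 24h turned in sign, as did that of Glyr1 from 0h to 7d. The comparisons of times share libraries and are not independent of each other.

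**Figure D5:**
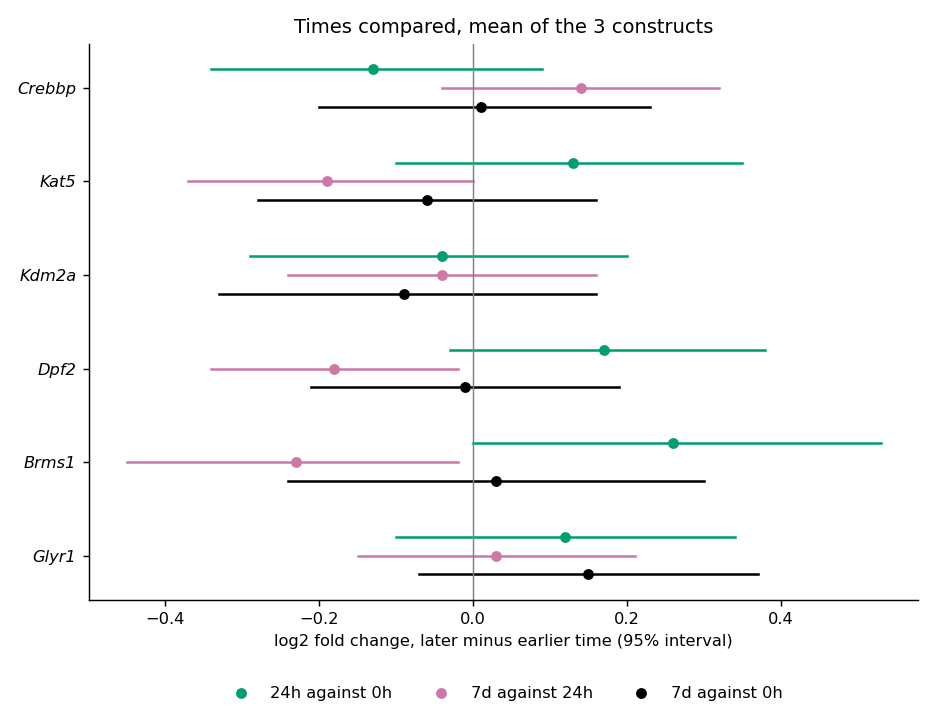
log2 fold change between times, averaged over the 3 constructs, with 95% intervals, for 24h against 0h, 7d against 24h and 7d against 0h. Dpf2, Brms1 and Kat5 lie below 0 from 24h to 7d with intervals that end at or just under 0, and the differences from 0h to 7d lie between -0.09 and 0.15.

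Other chromatin genes came from lists of acetyltransferases, deacetylase and CoREST complexes, remodelers, methyltransferases, demethylases and histone chaperones. Of their 303 genes, 294 had a row, but only 16 lay in register, the 6 coregulators and 10 more: Naa60, Snai2, Nrip1, Bcl6, Zbtb20, Setd4, Suv420h1, Hira, Ubn1 and Banf1. For the hairpins over the 3 times 0 of these 10 were called, and 1 had an unadjusted p under 0.05 where 6.49% of all rows had, Zbtb20, a zinc finger repressor, at 0.54 ± 0.227 (edgeR adjusted p = 0.766). From 0h to 7d 0 of 10 were called, against 5.76% of all rows, and 6 had an unadjusted p under 0.05, against 20.5% of all rows (Naa60, Snai2, Nrip1, Bcl6, Suv420h1 and Ubn1). Of these, Ubn1, a subunit of the HIRA histone chaperone complex, had means of 266 ± 6.04 CPM at 0h (SD, n = 3), 286 ± 14.6 at 24h and 337 ± 26.9 at 7d (n = 6 each), a difference of 0.34 ± 0.090 from 0h to 7d (edgeR adjusted p = 0.0636). Bcl6, a repressor that recruits NCoR and SMRT, had 172 ± 39.9, 103 ± 26.4 and 111 ± 21.2 CPM, and a difference of -0.61 ± 0.205 (edgeR adjusted p = 0.139). Snai2, a repressor of epithelial genes that can recruit CoREST, had 228 ± 39.2, 146 ± 38.1 and 131 ± 35.7 CPM, and a difference of -0.79 ± 0.280 (edgeR adjusted p = 0.158). From 0h to 24h and from 24h to 7d edgeR also called 0 of the 10, with 3 at an unadjusted p under 0.05 in each, against 11.5% and 17.8% of all rows. DESeq2 called 0 of them in the hairpin comparison (0.843% of rows) and 1 from 0h to 24h, Bcl6 (4.5% of rows). It called Suv420h1, a methyltransferase of histone H4, and Ubn1 both from 0h to 7d (11% of rows) and from 24h to 7d (8.51%).

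The pattern of each coregulator over the 15 libraries was set against 488 other in-register genes, as a description in which construct, time and library composition are shared. For Crebbp the most alike were Lpp (Pearson r = 0.84), Aldh3b1 and Cd248 (0.81 each), and for Kat5 Gm5678 (0.66), Bbs1 (0.65) and Nagpa (0.60). Gm5678 had a mean of only 2.32 CPM, so its pattern rests on low counts. Kdm2a was closest to Ifnar2 and Dtx3l (0.83 each) and App (0.80), and Dpf2 to Ppp6r3 and Il1rap (0.71 each) and Cbr1 (0.63). For Brms1 they were Klc2 (0.85), Ndufs8 (0.77) and Bbx (0.74), and for Glyr1 Gtf2e1 (0.85), Zfp597 (0.82) and Gabpa (0.79). No coregulator was among the 3 most alike of another. The 15 pairs of coregulators ranged from -0.55 (Crebbp with Brms1) to 0.49 (Crebbp with Kdm2a), with a median of -0.06, against a median of 0.02 and a 5% to 95% range of -0.61 to 0.64 over all pairs of in-register rows.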

How the data were processed

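RNA-seq read counts of 18 libraries were used. The authors deposited 1 table of raw counts per gene, whole numbers with 40620 rows. The submitters' processing notes name FastQC, TopHat2 2.0.9, the build mm9, DESeq and DESeq2. How reads were assigned to genes, with which annotation and strand setting, is not given in the sources used here. Since the identifiers are of a later build, no row coordinates are printed, and GENCODE vM21, which held 97.4% of them, gave names, exon lengths and gene order only. Promoters are RefSeq's.

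Groups and sample numbers come from the titles. edgeR 4.0.16 in R 4.3.3 was run on the 15 libraries left without sample 1 at 0h: filterByExpr over 9 groups, TMM factors (0.970 to 1.039), robust dispersions, glmQLFit and glmQLFTest on group means, with 12930 rows, 6 residual degrees of freedom and Benjamini-Hochberg adjustment over all rows at a threshold of 0.05. SE is the size of the log2 fold change over the square root of F. CPM are TMM-scaled unless called plain, and log2 CPM used a prior count of 2. The procedure was tested on simulated counts of well-counted rows, 50 for each size of change in the hairpin libraries. The hairpin comparison over the 3 times called 1 of 50 rows changed 1.25-fold, 12 changed 1.5-fold, 41 changed 2-fold and 47 changed 3-fold. The simulated rows were drawn from the whole table with their own spread, and rows as steady as the 6 were not simulated apart. These shares therefore need not hold for the 6, whose intervals are given above. A lack of calls still does not show that small differences are absent. Alternatives were DESeq2 1.42.0, other scalings, no filter, all 18 libraries, in-register rows only, replicate blocks, and leaving out each library. Levels, pairs and correlations were computed in Python 3.11.15 with pandas 2.3.3.

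Deviations of libraries with the same construct and number correlated between 24h and 7d at 0.47, 0.52 and 0.49 over 416 in-register rows, and at 0.03 to 0.06 over all rows tested. These libraries were treated as paired only in the differences by pair and in the fits with a block by number within construct. The tests of the main fit used no pairing. This pairing comes from the values, as the labels state none. Deviations of the same sample number in different constructs correlated at -0.20 to 0.60 at 24h and at -0.19 to 0.45 at 7d over the in-register rows. All 6 coregulators are named, with the chromatin genes of the lists that lie in register and, for each coregulator, the 3 in-register genes of highest correlation. The genes, the lists, the stretches and the left-out libraries were chosen with earlier results of these data known.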

Additional observations from a re-analysis of the deposited data

Results flagged for a closer look

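Kat5 at 7d in shScramble sample 2, at 145 CPM, was set apart from the other 5 libraries of that time on the log2 scale. The gap was 0.64 of the whole range of log2 CPM, above the 95% critical value of Dixon's test for 6 samples. The other 5 lay between 173 and 191 CPM. In CPM without the logarithm the gap was a smaller share of the range, below that critical value, so the flag depends on the scale. The test was applied to 12 sets of 6 libraries, each coregulator at 24h and at 7d, and chance marks about 1 in 20. Without this library the difference of Kat5 from 24h to 7d was -0.13 ± 0.070 on the log2 scale (edgeR adjusted p = 0.394), and the shift of its hairpin difference from 24h to 7d was 0.19 ± 0.159 (edgeR adjusted p = 1).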

How the results depend on the processing

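The count of coregulators called, 0 of 6 in each of 11 comparisons, was the same under every alternative run except 1. In the fit with the replicate block (number within construct) on in-register rows only, added after the data had been seen, 2 were called from 24h to 7d, as given above. That fit had 3 residual degrees of freedom, and leaving out libraries was not run in it. The whole-table fits with a replicate block, by sample number or by number within construct, changed no call among the 6 and gave 0.01 for Kdm2a from 0h to 24h, and the added fit gave 0.03, where the value without a block was -0.04. The whole-table block by number within construct called 169 rows from 24h to 7d where the fit without it called 302, the block by sample number called 409, DESeq2 1100 and the fit of all 18 libraries 38. With all 18 libraries, which adds sample 1 at 0h, signs turned for Kat5 (0.03) and Glyr1 (0.00) in the hairpin comparison, for Kat5 (-0.14), Dpf2 (-0.09), Brms1 (-0.10) and Glyr1 (-0.46) from 0h to 24h, and for Glyr1 from 0h to 7d (-0.41). There Crebbp was at -0.63 and Kdm2a at -0.57 from 0h to 24h, and the hairpin difference of Brms1 was -0.03 both at 0h and over the 3 times, against -0.47 and -0.17 with 15. The cause was not tested. Glyr1 from 24h to 7d was -0.02 with library sizes only and -0.00 on in-register rows, with and without the block. Leaving out each library in turn gave -0.12 to 0.02 for Kat5 and -0.00 to 0.10 for Kdm2a in the hairpin comparison over the 3 times. There Brms1 ran from -0.21 to -0.02, Crebbp from 0.04 to 0.17, Dpf2 from 0.02 to 0.13 and Glyr1 from -0.17 to -0.08. For Brms1, Crebbp, Dpf2 and Glyr1 the values nearest 0 were all reached without shScramble sample 2 at 0h (Glyr1 also without shScramble sample 2 at 7d). The run without shScramble at 0h averages 24h and 7d only. From 0h to 24h, leaving out each library gave -0.23 to -0.02 for Crebbp, 0.08 to 0.24 for Dpf2, 0.20 to 0.39 for Brms1 and -0.01 to 0.29 for Kat5. A construct without its 0h library drops out of that comparison. From 24h to 7d the ranges were -0.10 to 0.01 for Kdm2a and -0.02 to 0.08 for Glyr1, while Dpf2 kept to -0.21 to -0.14 and Brms1 to -0.31 to -0.16. For Kat5 the change of the hairpin difference from 24h to 7d ran from 0.19 (without shScramble 7d sample 2) to 0.53 (without shScramble 7d sample 1).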

Other observations

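In the 3 libraries left out of every comparison, sample 1 of each construct at 0h, plain CPM (counts over the library total) of the 6 coregulators were above those of sample 2 at 0h. The share of all rows that stood higher in the same way was not counted, so this is not read as a trait of the 6. Crebbp was at 392 to 450 CPM in the left-out libraries and at 219 to 278 in sample 2. Kdm2a was at 1549 to 1631 and at 850 to 953, and Glyr1 at 744 to 836 and at 381 to 486. Dpf2 was at 777 to 851 and at 558 to 650, Kat5 at 240 to 254 and at 155 to 205, and Brms1 at 208 to 215 and at 126 to 184. These libraries had counts in fewer rows than the other 15, and the part of that in the values was not tested.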
